A study of Mus musculus with 37 samples.

Results

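The genes described here encode the subunits of the mitochondrial respiratory chain that are made from the nuclear genome. They were chosen by symbol: every gene whose name begins with Nduf, Uqcr, Cox4, Cox5, Cox6, Cox7, Cox8 or Atp5, and Sdha to Sdhd, with a mean of at least 1 RPKM in the table of its stage. RPKM counts reads relative to the length of the transcript and the size of the library. Of 24318 genes in each of the 2 tables, 92 had such a symbol and 88 passed the minimum, the same 88 at both stages. They comprise 44 genes of complex I, 4 of complex II, 8 of complex III, 15 of complex IV and 17 of complex V. The 4 genes under the minimum were Cox4i2, Cox6a2, Cox8b and Ndufa4l2, tissue or hypoxia forms of other subunits, with means between 0 and 0.523 RPKM; the lowest included were Atp5s, at 1.83 RPKM at E10.5 and 3.30 RPKM at E11.5, and Cox8c, at 2.42 and 3.78 RPKM. A complex was assigned by symbol alone, so that Ndufa4, which was named as a complex I subunit and is now placed in complex IV, is counted here in complex I.

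The series profiled polyadenylated RNA of sorted mouse primordial germ cells (PGCs), from which eggs and sperm later form. GFP-positive cells were sorted from embryos carrying an Oct4-IRES-Gfp reporter (OG), whose mothers were also homozygous for the floxed Dnmt1 2lox allele and whose fathers carried Blimp1-Cre (BC), a recombinase expressed from the promoter of a PGC specification gene. Knockout cells are called DCKO, with the genotype Dnmt1 -/- in the labels, and controls are labelled wild type; the labels do not say which alleles or Cre status the controls had. Dnmt1 is the enzyme that restores DNA methylation after replication. The E10.5 table held 2 female and 1 male DCKO and 2 female and 2 male control libraries (3 against 4), and the E11.5 table held 6 female and 4 male DCKO and 4 female and 4 male control libraries (10 against 8), 25 of the 37 samples described. A further 12, at E13.5, were not used here. Whether the libraries in a group stem from different embryos is not labelled, so p-values measure only how far these samples spread, which may be technical.

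Complexes I and II pass electrons from NADH and succinate to ubiquinone, complex III passes them to cytochrome c and complex IV to oxygen, while complexes I, III and IV pump protons that complex V, the ATP synthase, uses to make ATP. All complexes but II also hold a few subunits encoded by mitochondrial DNA, for which neither table had a match by the symbols searched. Many of the small subunits have processed pseudogenes, and how the deposited values treat reads shared with such copies is not given in the sources used here. In sorted populations such as these, fewer cells of a type and less RNA per cell cannot be told apart.

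Dnmt1 itself lay between 14.9 and 29.6 RPKM in E10.5 DCKO libraries against 74.1 to 107 in controls, and between 13.0 and 59.4 RPKM in E11.5 DCKO libraries against 72.9 to 296 in controls, with no overlap. Sequencing depth is unknown. E10.5 libraries had 9125 to 11095 genes at or above 1 RPKM, and E11.5 libraries 8277 to 13200. 1 E11.5 library stood apart: in male control 3 the mean log2 value of 10 PGC markers was lowest (3.01, others 5.04 to 6.40) and that of markers of other cell types highest (4.87, others up to 4.02). Female DCKO 4 and female control 3, next in those markers at 4.02 and 2.97, carry the same number in their titles as male control 3, a number whose meaning is not labelled and which no male DCKO library has. It also had the most genes at or above 1 RPKM and the smallest share of summed RPKM in the 88 genes (1.77%, others 2.55% to 3.64%). It held the lowest value of 31 of the 88 genes. Male control 4 and male DCKO 4 had the fewest genes at 1 RPKM or more, 8277 and 8607, and at E10.5 female DCKO 1 had the largest summed RPKM, 1121200, and the highest value of 43 of the 88.

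Respiratory chain genes were among the most abundant transcripts of PGCs. The median of their mean levels reached 145 RPKM at E10.5 and 135 RPKM at E11.5, against 11.6 and 10.6 RPKM over the 11584 and 12667 genes that averaged 1 RPKM or more. At each stage 54 of the 88 reached 100 RPKM, and 55 at E10.5 and 60 at E11.5 were among the 1000 genes with the highest means. Their levels also varied less between libraries: the median SD of log2(RPKM + 1) came to 0.61 at E10.5 and 0.71 at E11.5, against 0.84 and 0.97 over all of those genes, which are on the whole at a lower level. At each stage 83 of the 88 were above 0 in every library.

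The complexes differed in level in an order shared by most libraries. With isoforms and factors counted in the complex of their symbol, the median member of complex V lay above that of complex IV in 7 of 7 E10.5 and 16 of 18 E11.5 libraries, that of complex IV above complex III in 7 of 7 and 17 of 18, and that of complex III above complex I in 7 of 7 and 16 of 18. Complexes I and II did not separate as clearly, with I above II in 5 of 7 and 13 of 18. Complex I counts assembly factors here and complex II holds none, and their order was not recounted over subunits alone. Complex II subunits had medians of 73.2 RPKM at E10.5 and 87.9 RPKM at E11.5. Those of complex I were 132 and 123 RPKM for accessory subunits and 88.1 and 54.5 RPKM for core subunits. The order of V and IV depends on how isoforms and factors are assigned. Over subunits alone, the 10 complex IV subunits had medians of 553 RPKM at E10.5 and 507 RPKM at E11.5. The 15 complex V subunits had 457 and 397 RPKM, and the median of IV lay above that of V in 7 of 7 and 15 of 18 libraries. The ATP synthase genes were led by Atp5b, the catalytic beta subunit, which ran from 873 to 2819 RPKM over the E11.5 libraries with a mean of 1697 RPKM. Atp5k, the small membrane subunit e, was next with a mean of 1276 RPKM. That mean includes 8313 RPKM in male DCKO 1, beside 332 to 1621 RPKM in the other libraries. Complex IV was led by Cox7c and Cox6c, small subunits without a catalytic role, at means of 1197 and 1114 RPKM. At the other end of complex V, the loosely associated Atp5s averaged 3.30 RPKM.

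**Figure D1:**
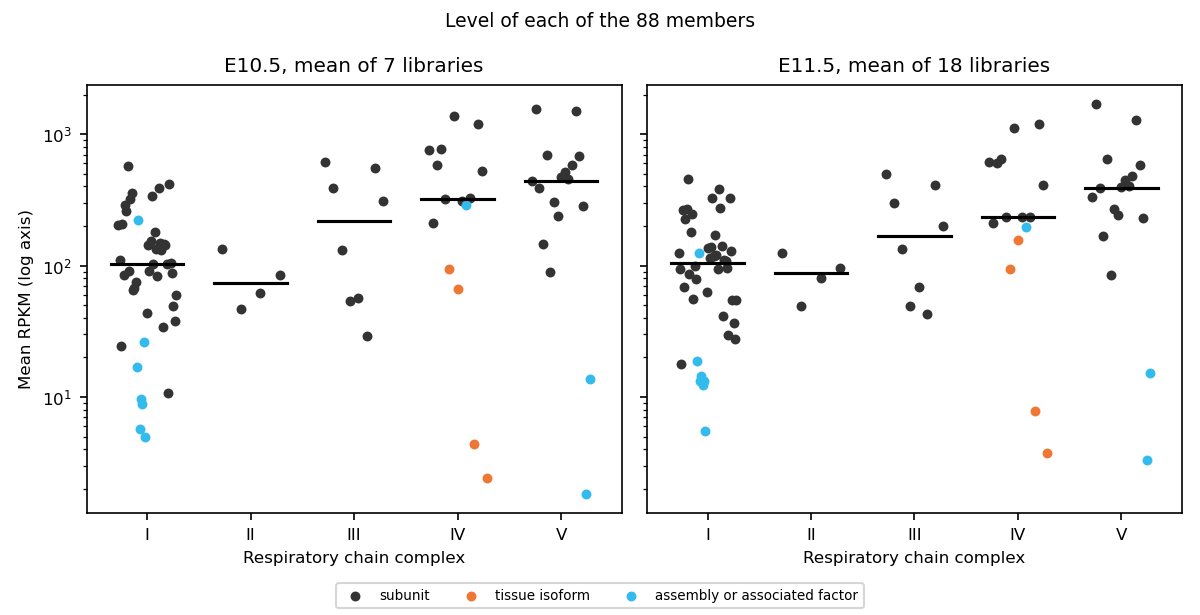
Mean RPKM (log axis) of each of the 88 genes over the 7 libraries at E10.5 (left) and the 18 at E11.5 (right), by complex; each point is a gene, coloured by its kind, and bars are the medians of all genes of a complex. Complex V has the highest bar at both stages when isoforms and factors are counted, while over subunits alone complex IV is higher (553 against 457 RPKM at E10.5), and assembly factors and tissue isoforms fill the lower end of complexes I, IV and V.

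Within a complex, levels differed between kinds of subunit, with overlap. At E10.5 the accessory subunits of complex I ran from 10.8 to 577 RPKM and its core subunits from 34.3 to 146 RPKM. RPKM is relative to transcript length, and the part of length in these levels was not tested. In complex I the 7 nuclear core subunits, which carry the flavin and the iron-sulfur clusters, had a median of 88.1 RPKM at E10.5 and 54.5 RPKM at E11.5, below the 132 and 123 RPKM of the 30 accessory subunits. The highest counted in complex I at E11.5 were Ndufa4, classed here as accessory though now placed in complex IV, and the accessory Ndufb9. Means at E10.5 and E11.5 were 577 and 452 RPKM for Ndufa4 and 391 and 381 RPKM for Ndufb9. Assembly or associated factors, which help to build a complex and need not stay in it, were lower still, with a median of 11.7 RPKM at E10.5 and 13.8 RPKM at E11.5 over 10 genes. Ndufaf7, a methyltransferase that acts on a complex I core subunit, had the lowest mean in complex I at E11.5, 5.55 RPKM. Cox7a2l, which links complexes III and IV into supercomplexes, and Ndufaf2, a complex I assembly factor, were far above the other 8 of these factors, at 287 and 196 RPKM and at 220.3 and 124 RPKM. In complex III the small subunits Uqcr10 and Uqcrh (means of 494 and 411 RPKM at E11.5) stood above the Rieske iron-sulfur protein Uqcrfs1 (42.5 RPKM), and in complex II the flavoprotein Sdha averaged 124 RPKM against 49.5 RPKM for the iron-sulfur subunit Sdhb. Levels at the stages come from separate tables and were not tested against each other.

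The most and least variable genes were of different kinds. Over the 18 E11.5 libraries the smallest SDs of log2(RPKM + 1) belonged to the ATP synthase genes Atp5a1 (0.25, the alpha subunit), Atp5c1 (0.37, the gamma subunit of the rotor), Atp5g3 (0.38, a c-ring gene) and Atp5b (0.40). The largest belonged to Cox7b2 (1.74), Ndufs5 (1.72), Cox8c (1.71) and Ndufaf3 (1.67), of which Cox7b2 and Cox8c are isoforms of other subunits and Ndufaf3 is an assembly factor, all 4 with means under 30 RPKM. No gene with a median of at least 20 RPKM was listed at 0 in any library. The c-ring genes Atp5g1, Atp5g2 and Atp5g3, which encode the same mature protein, averaged 269, 243 and 397 RPKM at E11.5.

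Summed over the genes of each complex, DCKO and control libraries overlapped at both stages. At E11.5 complex I summed to between 2543 and 6353 RPKM in controls (median 4611) and between 3601 and 7704 RPKM in DCKO (median 6784), a log2 ratio of the group means of 0.38. The corresponding ratios were -0.26 for complex II, 0.01 for III, 0.24 for IV and 0.34 for V. At E10.5 they were 0.30 for complex I, 0.03 for II, 0.10 for III, 0.35 for IV and 0.25 for V, and without female DCKO 1, whose sums were the highest of all for complexes I, III, IV and V, those 4 became -0.10, -0.36, -0.06 and -0.14. When each library was scaled to the same summed RPKM, the complex III ratio at E11.5 was -0.06, and at E10.5 those of complexes II and III were -0.06 and -0.10. The E11.5 ratio of complex II rests on male control 4, whose Sdhd, a membrane anchor, was 438 RPKM against 49.7 to 68.1 RPKM in the other male controls, and was 0.02 without it. That of complex V at E11.5 was 0.21 without male DCKO 1. Its complex V sum was 14853 RPKM, with the next highest at 8959 RPKM, and its Atp5k was 8313 RPKM.

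Among males the complex I sums separated. The 4 male DCKO libraries summed to 6775, 7146, 7704 and 6975 RPKM and the 4 male controls to 5475, 4770, 2543 and 5721 RPKM. Every male DCKO value lay above every male control. As a share of all RPKM in the library they overlapped, at 0.756% to 1.09% in male DCKO and 0.492% to 0.848% in male controls. Female DCKO and control sums overlapped.

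**Figure D2:**
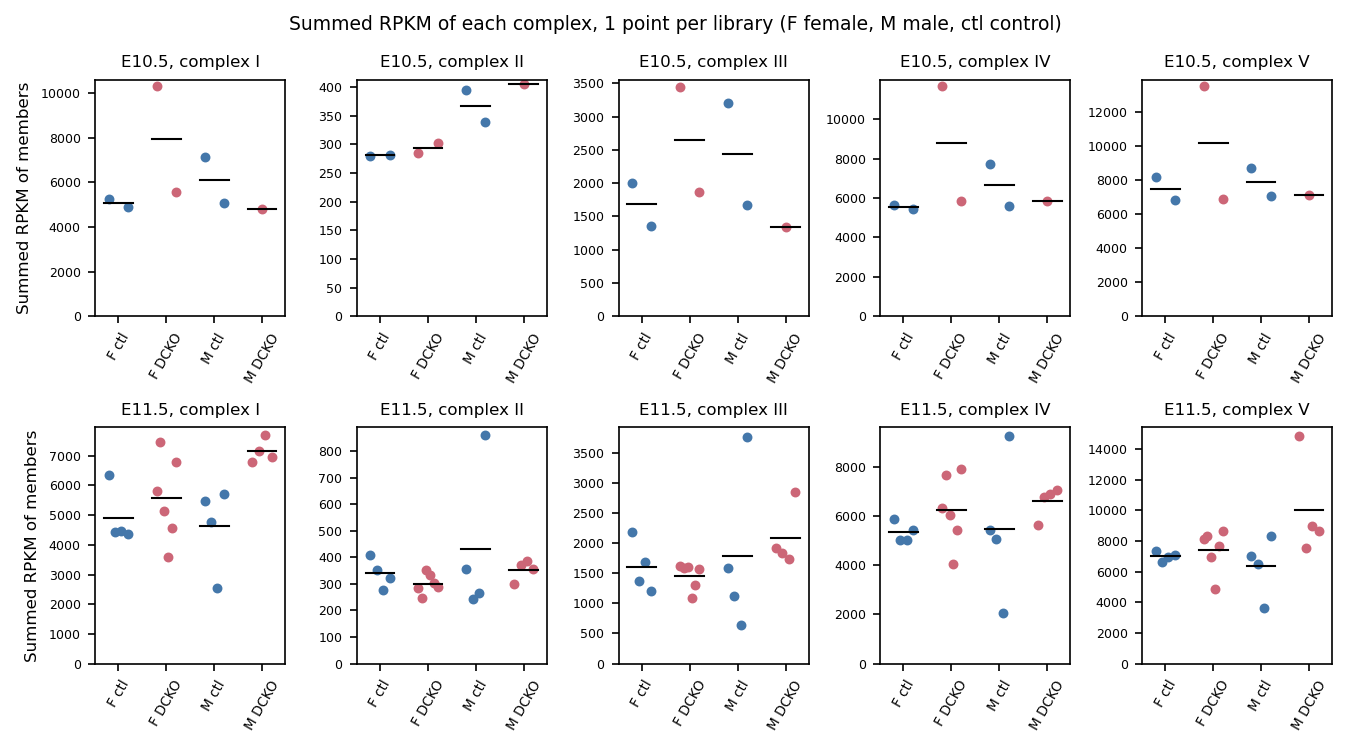
Summed RPKM of the genes of each complex (y axis, from 0), 1 point per library, by sex and genotype, at E10.5 (top) and E11.5 (bottom); bars are group means. The complex I sums of male DCKO libraries at E11.5 (6775 to 7704) sit above those of male controls (2543 to 5721), while female groups overlap, and female DCKO 1 stands above the other E10.5 libraries for complexes I, IV and V.

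No respiratory chain gene differed by genotype past the threshold in any comparison, a Benjamini-Hochberg adjusted p under 0.05 over all genes by limma on log2(RPKM + 1). The count was 0 of 88 for the genotype comparison at E10.5 (0% of all genes passed), for that at E11.5 (0.0237% passed), within females (0.00789%), within males (0.0316%), for the difference between the sexes in the genotype effect (0%) and for females against males among controls (0.00789%). At E10.5 Dnmt1 itself did not pass, although its DCKO and control values did not overlap. A count of 0 therefore does not show that levels were equal. At an unadjusted p under 0.05, the limma counts for the 88 genes, with the share of all genes beside each, were 2 at E10.5 (3.09%), 9 at E11.5 (5.46%), 0 within females (2.17%), 17 within males (6.95%), 10 for the difference between the sexes (3.58%) and 2 between control sexes (2.35%). All 9 at E11.5 and all 17 within males had higher values in DCKO.

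At E11.5 the genotype differences of the 88 genes leaned towards DCKO. Their median was 0.16 on the log2(RPKM + 1) scale with 63 of 88 above 0, against a median of -0.06 over all genes, and it was -0.02 against -0.22 when each library was scaled to the same summed RPKM. Without male control 3 it was 0.07 with 46 above 0, against -0.01 over all genes. By complex the medians were 0.20 in I (32 of 44 above 0), -0.08 in II (2 of 4), 0.15 in III (5 of 8), 0.12 in IV (12 of 15) and 0.11 in V (12 of 17). Of the 88, Uqcr11, a small subunit of complex III, had the smallest p. It was at 74.6, 199 and 343 RPKM (lowest, median, highest) in 8 controls and 193, 375 and 509 RPKM in 10 DCKO libraries. These ranges overlapped, and the difference was 0.91 (SE 0.26, limma adjusted p = 0.722). Ndufc1, a small accessory subunit in the membrane arm of complex I, differed by 1.43 (SE 0.41, limma adjusted p = 0.722), and Atp5e, the epsilon subunit of the ATP synthase rotor, by 0.72 (SE 0.26, limma adjusted p = 0.902). Sdha had the smallest p in complex II, with a difference of -0.30 (SE 0.27, limma adjusted p = 0.946). None of the 88 had every DCKO library above every control; 0.00789% of all genes did.

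The female and male differences had unlike medians, though no gene passed the test of that contrast. Within males the median difference of the 88 genes was 0.30 with 60 of 88 above 0, against -0.10 over all genes, and within females it was 0.05 with 47 of 88 above 0, against -0.01 (-0.07 against -0.12 with equal summed RPKM). Complex I had a male median of 0.38 (31 of 44 above 0), III 0.51 (5 of 8), V 0.22 (13 of 17), IV 0.19 (10 of 15) and II -0.11 (1 of 4). The difference between the sexes, female minus male, had a median of -0.33 over the 88 genes against 0.08 over all, and was -0.07 against 0.00076 without male control 3 and 0.03 with the mean of other-cell markers as a covariate. All 10 genes at an unadjusted p under 0.05 were more positive in males, with none past the adjusted threshold. Uqcrq, the ubiquinone-binding small subunit of complex III, had the smallest p of the 88 in that test, -2.21 (SE 0.80, limma adjusted p = 0.995).

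The male median rests on male control 3. Without it the median was -0.03 with 43 of 88 above 0, against 0 over all genes. At an unadjusted p under 0.05 there were then 11 of the 88 by limma in place of 17, beside 7.75% of all genes in place of 6.95%; with the mean of the other-cell markers as a covariate the median was -0.04. That marker mean was 1.34 to 4.87 in male controls and 1.14 to 2.74 in male DCKO libraries, and 1.34 to 2.53 in the male controls other than male control 3. Of the lists behind it, 8 of 8 mesenchyme, 6 of 6 endothelial, 6 of 10 gonadal somatic, 4 of 6 erythroid, 4 of 6 macrophage, 5 of 6 gut epithelial and 3 of 6 muscle markers averaged at least 1 RPKM at E11.5. The summed RPKM of the mesenchyme list was 148 to 1032 in controls and 77.9 to 565 in DCKO, and that of the gonadal list was 1.47 to 108 and 1.56 to 112. In the same order it was 0.665 to 2227 and 0 to 1635 for erythroid and 100 to 266 and 52.2 to 528 for gut epithelial markers. Endothelial markers summed to 51.7 to 165 and 56.3 to 131, macrophage markers to 0 to 42.5 and 0 to 37.9, and muscle markers to 0.154 to 68.0 and 0.173 to 48.2. Part of these lists, such as Pecam1, Epcam and Cdh1, is also expressed by PGCs, and their part in the result was not tested beyond these values.

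A group of 10 genes separated the male libraries completely, with all 4 DCKO above all 4 controls: Ndufa3, Ndufb3, Ndufc1, Ndufs6 and Ndufs7 of complex I, Sdhb of II, Uqcr11 and Uqcrq of III, and Atp5e and Atp5j of V. They make up 11.4% of the 88, where 0.845% of all genes did the same. In the other direction there were 0 of the 88 and 1.49% of all genes. Without male control 3 the count was also 10, where 1.47% of all genes separated so, and without male DCKO 1 it was 17 (2.26%). With libraries scaled to the same summed RPKM it was 7 (0.347%), and without the few-gene libraries, male control 4 and male DCKO 4, it was 18 (3.77%). Leaving libraries out can only keep or raise such a count. The counts without a library therefore cannot show whether the separation depends on it. In females 1 gene, Cox6b1, separated in this way (0.371% of all genes). Ndufb3, Ndufs6, Ndufs7 and Atp5j are named here because their values were seen to separate.

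Ndufc1 had the largest male difference of the 88 genes. Its 4 male controls were at 149, 147, 117 and 19.8 RPKM and its male DCKO libraries at 1531, 379, 356 and 269 RPKM. The lowest DCKO value was 1.81 times the highest control, with male control 4 far below the other controls and male DCKO 1 far above the other knockouts. The fitted difference was 2.50 (SE 0.61, limma adjusted p = 0.585), and it was 1.82 without male control 4. In females the medians were 144 RPKM in controls and 192 RPKM in DCKO, and the ranges overlapped.

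Atp5e separated by as wide a margin. Male controls were at 479, 471, 174 and 436 RPKM, with male control 3 the low one, and male DCKO libraries at 1099, 926, 920 and 867 RPKM. The lowest DCKO value was again 1.81 times the highest control, for a fitted difference of 1.39 (SE 0.38, limma adjusted p = 0.611), or 1.04 without male control 3. Female medians were 552 RPKM in controls and 532 RPKM in DCKO.

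Ndufa3, an accessory subunit of the complex I membrane arm, was at 214, 238, 143 and 92.5 RPKM in male controls and at 677, 468, 547 and 395 RPKM in male DCKO. The groups were 1.66-fold apart at their nearest values, and the fitted difference was 1.66 (SE 0.49, limma adjusted p = 0.611). Its female medians were nearly equal, 162 RPKM in controls and 159 RPKM in DCKO. Uqcrq was at 173, 102, 40.1 and 57.6 RPKM in male controls and at 276, 189, 280 and 988 RPKM in male DCKO, a difference of 2.098 (SE 0.59, limma adjusted p = 0.611). Its nearest values were 1.09-fold apart, and those of the remaining 6 genes, among them Ndufs7, a core subunit with the last iron-sulfur cluster before ubiquinone, and Atp5j, part of the stator stalk, between 1.02-fold and 1.16-fold.

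**Figure D3:**
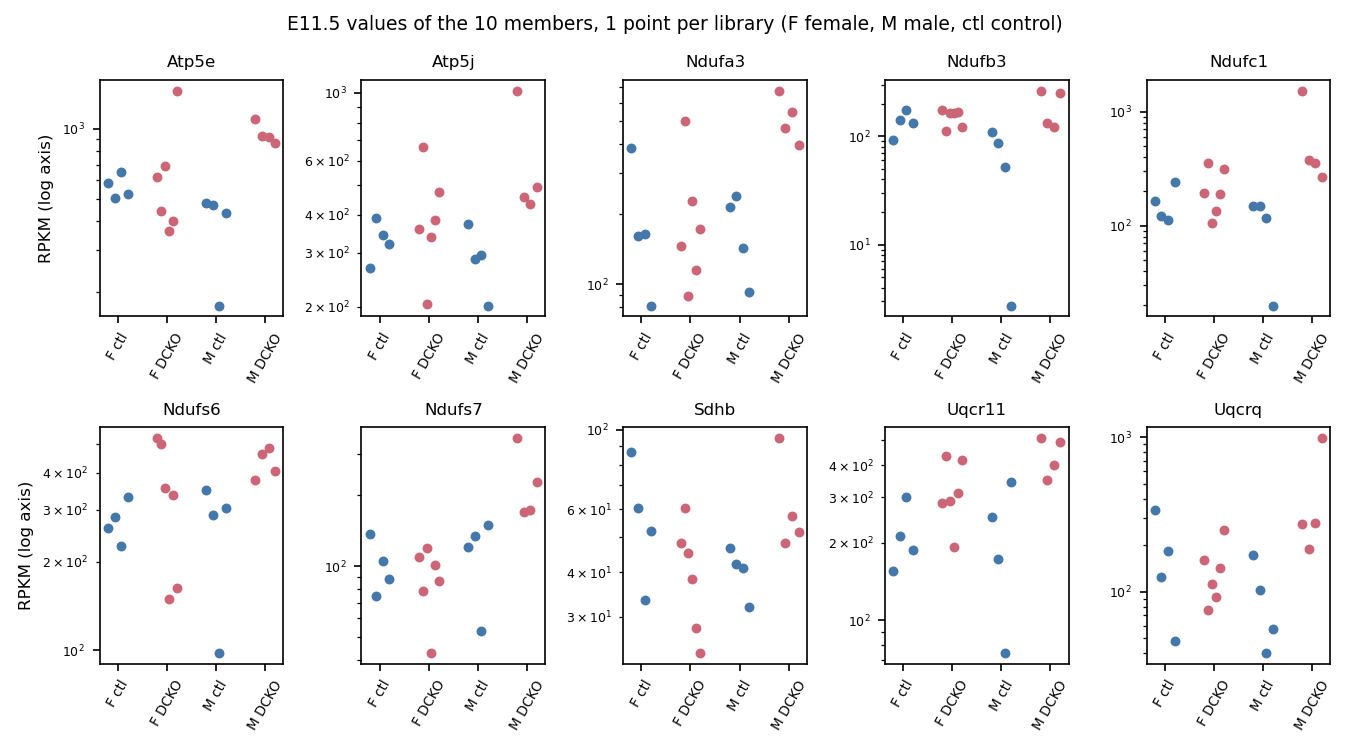
RPKM (log axes that differ between panels) of the 10 genes whose male DCKO libraries all exceeded the male controls at E11.5, 1 point per library in 4 groups. The male groups do not overlap in any panel, with a wide gap in Atp5e, Ndufa3 and Ndufc1, while female DCKO and control libraries overlap in all 10.

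**Figure D4:**
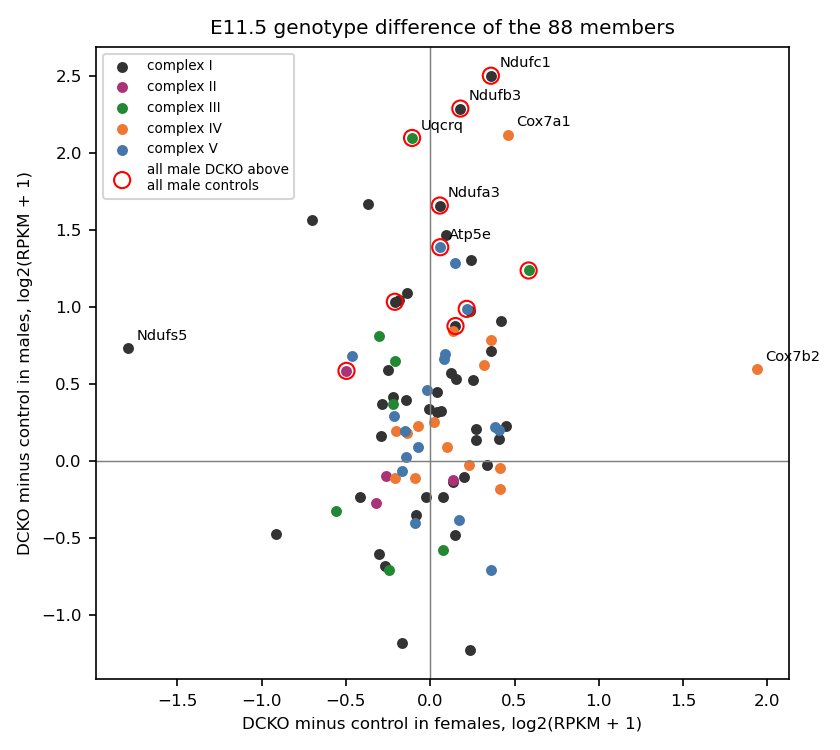
Fitted DCKO minus control difference at E11.5 in females (x axis) and males (y axis), both in log2(RPKM + 1), 1 point per gene, coloured by complex; red rings mark the 10 genes that separated the male libraries. Most points lie above 0 in males (60 of 88) and around 0 in females (47 of 88 above), and the ringed genes reach 2.50 in males.

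Annotated transcript length moved with the male difference over all tested genes and was short in the respiratory chain genes. Each gene was given the median length of its protein-coding transcripts in the GENCODE annotation of GRCm38. Which transcript was expressed is not known, so this need not be the length of the RNA measured. The median over genes was 693.5 bases for the 88 genes and 2149.5 bases for the 11541 of 12667 tested genes with a length. Among all tested genes the median male difference was 0.10 under 700 bases, -0.06 from 700 to 1500 bases and -0.14 above. For the respiratory chain genes it was 0.49 under 700 bases (44 genes), 0.20 from 700 to 1500 (37 genes) and 0.22 above (7 genes). Complete separation of the male libraries held for 1.90% of all genes under 700 bases and 5 of the 44 respiratory chain genes (11.4%), for 1.40% and 5 of the 37 from 700 to 1500 bases, and for 0.579% and 0 of the 7 above. The part of length in the result was not tested.

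The isoforms of complex IV were read next to the common form of the same subunit. Cox6b2 is best known from testis and sperm, Cox7a1 from heart and muscle, and their common forms are Cox6b1 and Cox7a2. The 250 bases before each start are shown because these isoforms hold fewer CpGs, the sequence on which Dnmt1 acts, than their common forms. The pair Cox7b2 and Cox7b went the other way, with 9 CpGs for the isoform and 5 for the common form in the 250 bases, and is not printed. The sequences are from RefSeq on GRCm38.p6, matched by symbol, 5′ to 3′ on the strand of the gene with each CG in capitals; the deposited values were made on another build, mm9. DNA methylation was not measured in the data used here, and a link between CpG content and isoform level was not tested.
Cox6b1: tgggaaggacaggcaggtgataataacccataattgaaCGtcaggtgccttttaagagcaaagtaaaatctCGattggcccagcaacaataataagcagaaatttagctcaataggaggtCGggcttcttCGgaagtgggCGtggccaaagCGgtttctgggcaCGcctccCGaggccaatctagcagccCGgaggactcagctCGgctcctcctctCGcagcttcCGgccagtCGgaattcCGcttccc
Cox6b2: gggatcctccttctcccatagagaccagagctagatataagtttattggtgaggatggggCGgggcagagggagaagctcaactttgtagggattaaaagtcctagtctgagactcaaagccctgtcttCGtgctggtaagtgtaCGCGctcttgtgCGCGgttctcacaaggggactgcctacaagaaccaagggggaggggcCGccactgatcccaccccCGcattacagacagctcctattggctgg
Cox7a2: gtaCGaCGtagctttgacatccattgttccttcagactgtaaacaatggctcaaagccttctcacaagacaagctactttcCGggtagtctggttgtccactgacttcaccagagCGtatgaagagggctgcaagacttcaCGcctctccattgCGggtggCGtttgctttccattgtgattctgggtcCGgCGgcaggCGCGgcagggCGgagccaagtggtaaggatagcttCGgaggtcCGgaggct
Cox7a1: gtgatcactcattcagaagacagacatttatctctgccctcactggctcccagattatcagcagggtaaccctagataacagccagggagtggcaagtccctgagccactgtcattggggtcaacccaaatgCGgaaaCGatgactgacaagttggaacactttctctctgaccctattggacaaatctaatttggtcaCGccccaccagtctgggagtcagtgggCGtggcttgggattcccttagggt
Cox6b1 lies at chr7:30626115-30626364 (- strand) and holds 14 CpGs in this stretch, and Cox6b2 at chr7:4753095-4753344 (- strand) holds 8. Cox7a2 at chr9:79759854-79760103 (- strand) holds 14 and Cox7a1 at chr7:30183921-30184170 (+ strand) holds 4.

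Cox6b2 had the smallest p of the 88 genes at E10.5. Controls were at 23.3 and 43.3 RPKM (male) and 15.3 and 81.4 RPKM (female), and DCKO libraries at 243 RPKM (male) and 143 and 112 RPKM (female). All 3 DCKO values lay above all 4 controls, the highest control being 81.4 and the lowest DCKO 112. The fitted difference was 2.24 (SE 0.59, limma adjusted p = 0.991). Cox6b1 went the other way without separating, at 567, 354, 227 and 322 RPKM in controls and 185, 394 and 194 RPKM in DCKO. Cox6b2 made up 3.95% to 20.2% of the pair in controls and 26.6%, 36.6% and 56.8% in DCKO. Complete separation at E10.5 held for 2 of the 88 genes (2.27%), Cox6b2 and Ndufb6, where 2.28% of all genes separated so.

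At E11.5 the Cox6b2 share overlapped, at 14.3% to 37.8% in 8 controls (median 19.99%) and 4.68% to 52.7% in 10 DCKO libraries (median 29.6%). Its difference was 0.47 (SE 0.59, limma adjusted p = 0.972). Cox7a1 made up 4.25% to 44.4% of Cox7a1 plus Cox7a2 in controls (median 22.0%) and 4.45% to 88.7% in DCKO (median 37.0%). The share exceeded 50% in 0 controls and in 3 DCKO libraries: male DCKO 4, male DCKO 1 and female DCKO 2. In that order Cox7a1 was 874, 131 and 303 RPKM, against up to 216 RPKM in controls. Their Cox7a2 was 111, 83.6 and 246 RPKM, against 71.0 to 311 RPKM in controls. The Cox7a1 difference was 1.29 (SE 0.68, limma adjusted p = 0.905) at E11.5 and 1.79 (SE 0.77, limma adjusted p = 0.991) at E10.5. At E11.5 it was 0.68 without male control 3, where Cox7a1 was lowest, at 3.15 RPKM. Markers of muscle and heart summed to 0.154 to 68.0 RPKM over 6 genes in E11.5 controls and 0.173 to 48.2 RPKM in DCKO. The part of such cells in the Cox7a1 level was not tested. Cox7b2 and Cox8c, the remaining isoforms above 1 RPKM, averaged 7.88 and 3.78 RPKM at E11.5, and Cox6a2, the muscle form of subunit 6a, was listed at 0 in every library.

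**Figure D5:**
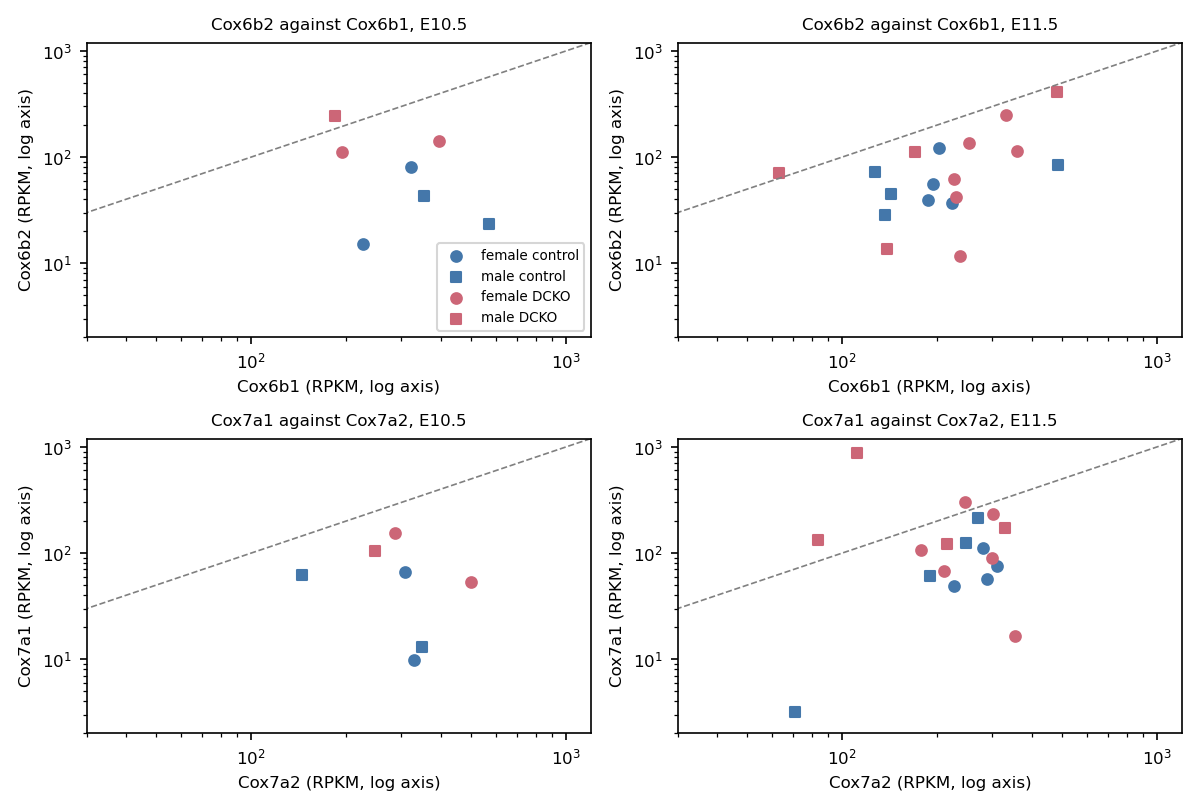
RPKM of the isoforms Cox6b2 (top) and Cox7a1 (bottom) on the y axis against the common forms Cox6b1 and Cox7a2 on the x axis, both log axes, at E10.5 (left) and E11.5 (right); each point is a library, colour gives genotype, shape gives sex and the dashed line marks equal RPKM. At E10.5 the 3 DCKO libraries lie above the 4 controls in Cox6b2, and at E11.5 the groups overlap.

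Across the 88 genes, 75 matched a promoter window in the RefSeq table (250 bases before to 50 after the start), 69 of them with exactly 1 window. Those 69 held a median of 19 CpGs, from 5 to 39, against 7 over the 22862 genes of the table with 1 window. Unlike the 69, these 22862 genes were not filtered by expression, and every share of all in this paragraph refers to them. A comparison with expressed genes or with promoters of like CpG content was not made. Of the 69, 66 (95.7%) held at least 10 CpGs, against 42.9% of all. The 3 under 10 were Cox7b with 5, Cox7a1 with 7 and Ndufc2 with 8, and Cox6b2 held 10. Searched on both strands, with overlaps between motifs allowed, the core NRF1 motif CGCATGCG was in 10 windows (14.5% against 1.86% of all), the ETS motif CCGGAAG in 16 (23.2% against 9.12%) and the YY1 motif AAGATGGC in 9 (13.0% against 2.94%); NRF1, ETS-family GABP and YY1 are known regulators of respiratory genes. Of the 10 genes that separated the males, 8 had 1 window, of which 4 held the YY1 motif, 3 the ETS motif and 1 the NRF1 motif. The NRF1 motif was shortened to this form after a longer form, with a further base at each end, had been searched and its matches seen; the longer form was in fewer windows, and the match among the genes that separated the males was to the shorter form only. A match is a string of letters and was not tested as a binding site.

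At E10.5 the median difference of the 88 genes was 0.14 with 51 above 0, against -0.05 over all genes, and it was -0.04 without female DCKO 1. Apart from Cox6b2 and Cox7a1, none of the 88 had an unadjusted limma p under 0.05. Ndufb6, an accessory subunit of complex I, was at 156, 92.2, 200.3 and 103 RPKM in controls and at 212, 279 and 210.5 RPKM in DCKO. Its difference was 0.78 (SE 0.37, limma adjusted p = 0.991). Uqcrc1, a core protein of complex III, had the smallest p in its complex, with 72.2, 73.7, 83.8 and 45.3 RPKM in controls and 62.3, 6.11 and 33.7 RPKM in DCKO. The low value of 6.11 RPKM was female DCKO 1, and the difference went from -1.29 (SE 0.64, limma adjusted p = 0.991) to -0.54 without that library. Smallest p in complexes II and V belonged to Sdhb, at 0.57 (SE 0.34, limma adjusted p = 0.991), and Atp5k, at 0.65 (SE 0.56, limma adjusted p = 0.991), the latter 0.02 without female DCKO 1, where Atp5k was 4322 RPKM.

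Females and control sexes showed fewer departures. Within E11.5 females Cox7b2, an isoform of subunit 7b, had the smallest p of the 88. It was at 0.374, 2.33 and 2.56 RPKM (lowest, median, highest) in 4 controls and 0, 13.4 and 28.7 RPKM in 6 DCKO libraries, which overlapped. Its difference was 1.94 (SE 0.99, limma adjusted p = 1). Ndufs5, an accessory subunit of complex I, had a difference of -1.79 (SE 0.96, limma adjusted p = 1), set by female DCKO 1 at 0.00483 RPKM and female DCKO 6 at 0.233 RPKM beside 8.83 to 50.9 RPKM in the other 4. Among controls, 71 of the 88 genes were higher in females than in males, with a median difference of 0.18 against 0.05 over all genes. This too rests on male control 3, without which 39 of the 88 were higher in females and the median was -0.04 against 0.11 over all genes. The largest was Ndufaf6, an assembly factor, at 17.8 to 22.9 RPKM in female and 0.104 to 9.14 RPKM in male controls, 2.17 (SE 0.66, limma adjusted p = 1). Of the 88, it was also among the 4 with the smallest p for the difference between the sexes in the genotype effect, -2.26 (SE 0.89, limma adjusted p = 0.995).

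Related mitochondrial genes outside the symbol rule had medians nearer 0 in the E11.5 genotype comparison, and not in every other: at E10.5 the further oxidative phosphorylation genes had a median of -0.17 and those of mitochondrial biogenesis -0.26. Of 43 further oxidative phosphorylation genes, mostly assembly factors and cytochrome c, 40 were tested at E11.5 and 0 passed the limma adjusted threshold. At an unadjusted limma p under 0.05, 3 had higher and 1 lower DCKO values, where 5.46% of all genes were under it. The median difference was -0.05, or -0.02 within males, where that of all genes was -0.10. Their smallest p belonged to Ttc19, a complex III factor, at -1.22 (SE 0.40, limma adjusted p = 0.884), Timmdc1, a complex I assembly factor, at 1.08 (SE 0.38, limma adjusted p = 0.884), and Atpaf1, an ATP synthase assembly factor, at 1.17 (SE 0.47, limma adjusted p = 0.902). Of 22 genes of mitochondrial biogenesis and mitochondrial DNA upkeep, 20 were tested, with 0 at an adjusted or unadjusted limma p under 0.05 and a median of -0.05. The 22 genes of the tricarboxylic acid cycle and pyruvate entry had 0 at either limma threshold, 11 of 22 above 0 and a median of -0.04. Within males 13 of them were above 0 with a median of 0.21, against -0.10 over all genes. The difference between these lists and the respiratory chain genes was not tested.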

How the data were processed

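The authors deposited 1 table per stage with 1 RPKM column per library, per the file headers, and no counts. Per the submitters' processing notes, TopHat2 2.1.0, Cufflinks 2.2.1, Cuffdiff and build mm9 were used; their roles and the gene models are not stated there. Per the labels' protocols, RNA was amplified before library preparation, which can distort the levels of single transcripts. The deposited values show no whole-read steps, so depth is unknown and no counting interval is given.

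Genes averaging 1 RPKM or more were tested on log2(RPKM + 1), which understates differences of low genes, with limma 3.58.1 (trend) in R 4.3.3. All tests were two-sided. The E11.5 model held the 4 sex-by-genotype means, averaged over the sexes for the genotype difference; genotype and sex were additive at E10.5. Sample groups came from the labels, and each stage was tested in its own table. The script was tested on simulated data.

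Members and gene lists were chosen with earlier results of these data known. The rule for named genes took the 2 highest and the lowest of each complex, the isoform families, and the 4 most and least variable. It also took genes by p: the smallest per complex in the genotype comparison of each stage. From the 88 it took the 4 smallest within E11.5 females, within E11.5 males and for the difference between the sexes in the genotype effect. Alternatives were pseudocounts of 0.1 and 0.5, no minimum or a mean of 5 RPKM, other scalings, library weights, replicate blocks, other models, other-cell markers as a covariate, and leaving out libraries.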

Additional observations from a re-analysis of the deposited data

Results flagged for a closer look

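In 22 of 188 groups of E11.5 libraries (11.7%), over the sums of the complexes and 42 named genes, 1 library stood further from the rest of its group than Dixon's 95% critical value for its gap; chance gives about 1 in 20. Male control 3 and male control 4 account for 4 each.

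Male control 3 was the low library for Atp5e (174 RPKM, other male controls 436 to 479), Atp5g1 (90.2, others 248 to 301), Cox6c (369, others 1028 to 1232) and Ndufa4 (148.5, others 456 to 515). Male control 4 was low for Ndufc1 (19.8 RPKM, others 117 to 149) and Atp5s (0.564, others 4.52 to 4.72), and high for Cox6b1 (484, others 127 to 143) and Sdhd (438, others 49.7 to 68.1). Male control 1 was alone above 0 for Cox8c, at 8.53 RPKM.

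Among male DCKO libraries, Atp5c1 was low in male DCKO 1 (269 RPKM, others 451 to 501), Cox8c was high in male DCKO 3 (10.7, others 0 to 0.356) and Uqcrh was high in male DCKO 4 (718, others 441 to 446).

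Among female controls, the complex I sum was high in female control 1 (6353 RPKM, others 4375 to 4451), as was Cox7b (280.2, others 195 to 205). Atp5k was low in female control 2 (739.9 RPKM, others 936 to 977). Female control 3 was low for Cox6c (996 RPKM, others 1068 to 1077) and high for Ndufaf3 (22.3, others 15.8 to 16.5). Cox7b2 was low in female control 4 (0.374 RPKM, others 2.21 to 2.56).

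Among female DCKO libraries, female DCKO 4 was low for Atp5b (873 RPKM, others 1548 to 1774) and Cox4i1 (363, others 537 to 624.9). Female DCKO 2 was listed at 0 for Cox7b2 (others 7.63 to 28.7 RPKM) and Ndufaf3 (others 8.64 to 21.7 RPKM).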

How the results depend on the processing

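The limma count of respiratory chain genes past an adjusted p under 0.05 was 0 in all 6 comparisons under every alternative run, and none of the single-gene differences rerun passed it or changed direction. Medians were less stable: that of the 88 genes crossed 0 under at least 1 alternative in all 6 comparisons, reaching -0.038 at E10.5 without female DCKO 1, -0.016 at E11.5 and -0.067 within females with libraries scaled to the same summed RPKM, 0.034 for the difference between the sexes with the marker covariate and -0.037 between control sexes without male control 3. Counts at an unadjusted p under 0.05 moved. For the E11.5 genotype comparison (9 genes) it was 5 with libraries scaled to the same summed RPKM, and 7 to 13 with 1 library left out. Within males (17 genes) it was 11 with that scaling, 10 with library weights, 11 without the 3 libraries highest in other-cell markers, 9 with males fitted alone and 11 to 20 with 1 library left out. The lowest and highest counts over all alternatives were 1 and 5 at E10.5, 0 and 4 within females, 3 and 11 for the difference between the sexes, and 1 and 12 between control sexes. The male median (0.30) was -0.040 with the other-cell marker covariate, -0.026 without the 3 libraries highest in those markers, and from -0.026 to 0.42 with 1 library left out. The number of genes with all male DCKO above all controls (10) was 18 when the few-gene libraries, male control 4 and male DCKO 4, were left out, where 3.77% of all genes separated, and 10 to 17 with 1 library left out (1.20% to 2.26% of all genes). This number cannot fall when libraries are left out. Leaving out 1 library took the E10.5 log2 ratio of sums from -0.060 to 0.52 for complex IV and from -0.14 to 0.42 for complex V, the lowest without female DCKO 1. The cause was not tested.

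The correlations do not decide whether replicate numbers pair the samples. At E11.5, 5 of 24 same-number pairs correlated over 0.1, and 7 of 16 by title number. At E10.5 the count was 0 by either number. There the groups hold at most 2 libraries, whose deviations from the group mean mirror each other, so these pairs say little. By title number, 11 of 16 E11.5 libraries correlated best with a library of their own number, as a hint from the data and not from the design. By replicate number 8 of 16 did. At E10.5 it was 3 of 5 by title number and 6 of 6 by replicate number. The 3 libraries highest in other-cell markers (male control 3, female control 3 and female DCKO 4) share a title number, and their 3 correlations were 0.18 to 0.49. With the replicate number as a block, 15 genes were at an unadjusted p under 0.05 within males, and 13 by title number, which also gave 3 for the difference between the sexes and 12 between control sexes, with 0 past the adjusted threshold.

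Leaving out the libraries highest in other-cell markers, the medians between the sexes, the non-overlap counts and all alternatives of the unadjusted counts were chosen after seeing the data. Unknown depth and groups of 4 to 6 libraries at E11.5 and 1 or 2 at E10.5 limit the precision.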
